A study of Homo sapiens with 4 samples.

Results

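Tight junctions and cadherin adhesions are the contacts that hold epithelial cells in a sheet, and the genes described here are those of 10 of their components: the claudins CLDN1, CLDN3, CLDN4 and CLDN7, the tight junction proteins OCLN and TJP1, the cadherins CDH1, CDH3 and CDH2, and the adhesion molecule EPCAM. The genes were taken by name, and each matched 1 of the 50653 Ensembl identifiers of the expression table. RNA was measured in 4 libraries from 2 established human breast cancer cell lines, BT-20 and MDA-MB-468 (labelled MB-468 or MB468 in places), 1 library for each combination of cell line and short hairpin RNA (shRNA). The control libraries came from cells carrying a control shRNA, and the others from cells carrying an shRNA against QPRT, an enzyme of NAD synthesis from quinolinic acid. All 4 cultures had been transduced with lentivirus and selected with puromycin, each library stands for 1 culture, the labels do not name the hairpin, and the comparison between the cell lines is one between 2 individual tumour-derived lines. The values are FPKM, the fragments of a gene scaled to transcript length and library size. Totals of 10321996 to 10945948 fragments per library, and the fragments of each gene, were inferred from the FPKM.

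Tight junctions seal the space between neighbouring epithelial cells near their upper surface. Claudins form the strands and decide which ions may pass, occludin (OCLN) is a further membrane protein of the strands, and ZO-1 (TJP1) ties them to the actin cytoskeleton. Below them, E-cadherin (CDH1) joins cells at adherens junctions through catenins, P-cadherin (CDH3) does so in basal epithelium and basal-like breast tumours, and N-cadherin (CDH2) is the cadherin of neural and mesenchymal cells. EPCAM is a membrane glycoprotein of most epithelia that binds to itself and to CLDN7. A loss of CDH1 with a gain of CDH2 is the classical sign of an epithelial to mesenchymal transition.

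The targeted gene was lower in both libraries carrying its shRNA. QPRT had an FPKM of 249 and 40.5 in the BT-20 libraries with control and QPRT shRNA and of 117 and 18.3 in those of MDA-MB-468, so that 16.3% and 15.6% remained. The epithelial keratins KRT7, KRT8, KRT18 and KRT19 were at 436 FPKM or more in every library, PGR was listed at 0 in all 4, and ESR1 lay between 1.05 and 5.76 FPKM. ERBB2, the remaining receptor examined, was expressed well above ESR1 in every library and was higher in both BT-20 libraries. Among the markers of basal-like cells, KRT17 was at 2.76 and 2.51 FPKM in BT-20 against 237 and 373 in MDA-MB-468. KRT5 was at 294 and 265 FPKM in BT-20 against 642 and 983, and EGFR at 179 and 262 against 820 and 951. KRT6A lay between 1.24 and 2.76 FPKM in all 4 libraries. CDH3, also a marker of basal-like tumours, was higher in BT-20, as given below. In such bulk samples, fewer cells that express a gene and less RNA per cell cannot be told apart.

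The level of each gene was examined first. The claudins CLDN7 and CLDN4 were abundant in all 4 libraries. CLDN7, found in GRCh38 on chromosome 17 from 7259903 to 7263983 (minus strand), was at 161 FPKM in BT-20 with control shRNA, 164 in BT-20 with QPRT shRNA, 201 in MDA-MB-468 with control shRNA and 182 in MDA-MB-468 with QPRT shRNA. Both MDA-MB-468 libraries lay above both BT-20 libraries by a small gap. CLDN7 overlaps ELP5 and AC003688.1 in the annotation, and its count is uncertain to that extent. CLDN4, on chromosome 7 from 73799542 to 73832693 on the plus strand, was at 107, 135, 103 and 141 FPKM in the same order of libraries, with the QPRT shRNA library the higher one in each line and the 2 lines overlapping.

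CLDN3 and CLDN1 had the lower FPKM of the claudins in all 4 libraries. CLDN3, on chromosome 7 from 73768997 to 73770270 on the minus strand and 29271 bases from CLDN4, was at 11.7 and 8.92 FPKM in the BT-20 libraries with control and QPRT shRNA and at 59.9 and 68.1 in those of MDA-MB-468. CLDN1, on chromosome 3 from 190305701 to 190322475 on the minus strand, was at 17.5 and 14.8 FPKM in BT-20 against 19.98 and 22.33 in MDA-MB-468. The 2 lines did not overlap for either gene, by a wide gap for CLDN3 and a narrow one for CLDN1.

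OCLN and TJP1 were low beside the claudins that led. OCLN, on chromosome 5 from 69492292 to 69558104 on the plus strand, was at 10.27 and 11.05 FPKM in BT-20 against 18.9 and 14.7 in MDA-MB-468. TJP1, on chromosome 15 from 29699367 to 29968865 on the minus strand, was at 29.91 and 33.96 FPKM in BT-20 against 24.1 and 19.6 in MDA-MB-468. OCLN was thus higher and TJP1 lower in both MDA-MB-468 libraries than in either BT-20 library. The ratio of TJP1 to OCLN, in FPKM, was 2.91 and 3.07 in BT-20 against 1.28 and 1.33 in MDA-MB-468.

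The cadherins set the lines apart. CDH1, on chromosome 16 from 68737225 to 68835548 on the plus strand, was at 340 and 353 FPKM in BT-20 against 76.3 and 76.1 in MDA-MB-468. CDH3, which lies 14608 bases before CDH1 on the same strand, from 68636189 to 68722616, was at 427 and 356 FPKM in BT-20 against 33.5 and 49.2 in MDA-MB-468. For both genes the lower BT-20 library lay far above the higher MDA-MB-468 library. CDH2, on chromosome 18 from 27950966 to 28177446 on the minus strand, was listed at 0 in every library, where 3 fragments, the floor that a count of 0 allows, would correspond to 0.142, 0.138, 0.137 and 0.146 FPKM. EPCAM, on chromosome 2 from 47345158 to 47387601 on the plus strand, had the opposite order to CDH1, with 148 and 181 FPKM in BT-20 against 359 and 342 in MDA-MB-468.

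**Figure D1:**
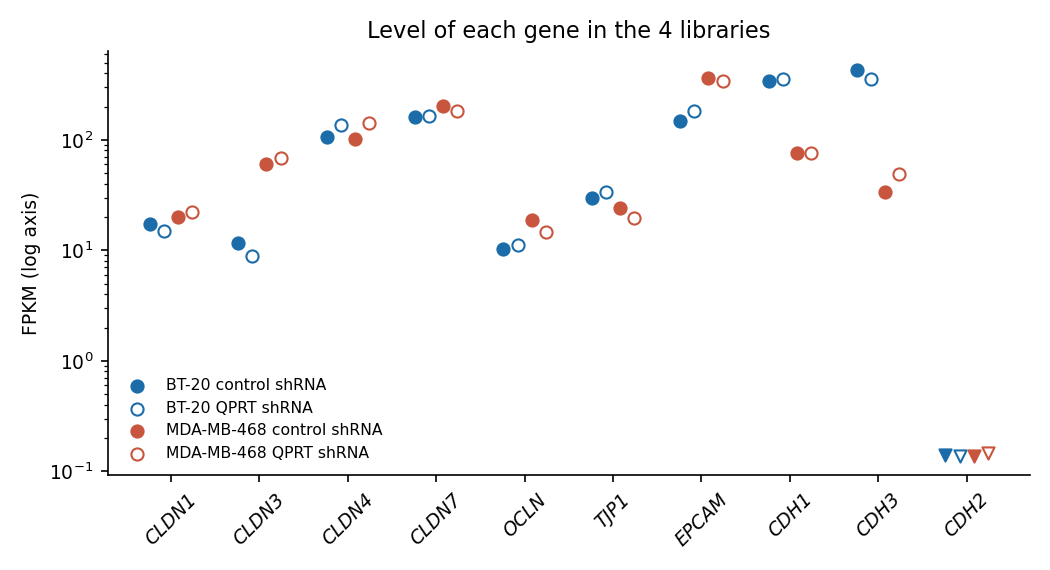
FPKM (log axis) of each of the 10 genes in the 4 libraries, 1 point per library; CDH2 was listed at 0 and is drawn as triangles at the FPKM of 3 fragments. CDH1 and CDH3 stand far apart between the lines (340 and 427 against 76.3 and 33.5 with control shRNA), and CLDN4 and CLDN7 lie close together in all 4 libraries.

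FPKM is scaled to length, so that genes were also ranked within a library. In BT-20 with control shRNA the order was CDH3, CDH1, CLDN7, EPCAM, CLDN4, TJP1, CLDN1, CLDN3 and OCLN, and with QPRT shRNA EPCAM passed CLDN7 and OCLN passed CLDN3. In MDA-MB-468 with control shRNA it was EPCAM, CLDN7, CLDN4, CDH1, CLDN3, CDH3, TJP1, CLDN1 and OCLN, and with QPRT shRNA CLDN1 passed TJP1. The pairs that changed places are neighbours that cannot be ordered from 1 library each. The FPKM rest on the mean length of the annotated transcripts. With fragments divided instead by the longest transcript, a measure added after the data were seen, CDH1 came first in both BT-20 libraries in place of CDH3, and EPCAM stayed first in both of MDA-MB-468. The ratio of CDH3 to CDH1 was 1.26, 1.01, 0.439 and 0.647 in FPKM and 0.858, 0.687, 0.299 and 0.441 per length of the longest transcript, so which cadherin led in BT-20 depends on the length used, whereas the ratio was lower in both MDA-MB-468 libraries on either scale.

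The summed level of the claudins differed less between the lines than that of CDH1 and CDH3. The 4 claudins summed to 297 and 323 FPKM in BT-20 and to 383 and 414 in MDA-MB-468. CLDN7 contributed 54.2% and 50.8% of that sum in BT-20 against 52.3% and 44.0% in MDA-MB-468, and CLDN4 contributed 35.98% and 41.83%, and 26.8% and 34.2%. CLDN3 contributed 3.96% and 2.77% in BT-20 against 15.6% and 16.4% in MDA-MB-468. The largest share was that of CLDN7 in all 4 libraries, the share of CLDN3 was higher in both MDA-MB-468 libraries by a wide gap, and that of CLDN4 was lower in them by a narrow one. Per length of the longest transcript, CLDN3 contributed 7.14% and 5.04% in BT-20 against 25.7% and 26.8% in MDA-MB-468, and it then lay above CLDN4 (23.9%) in MDA-MB-468 with control shRNA. CDH1 and CDH3 together summed to 767 and 709 FPKM in BT-20 and to 110 and 125 in MDA-MB-468. The ratio of EPCAM to CDH1 was 0.435 and 0.513 in BT-20 against 4.71 and 4.50 in MDA-MB-468.

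**Figure D2:**
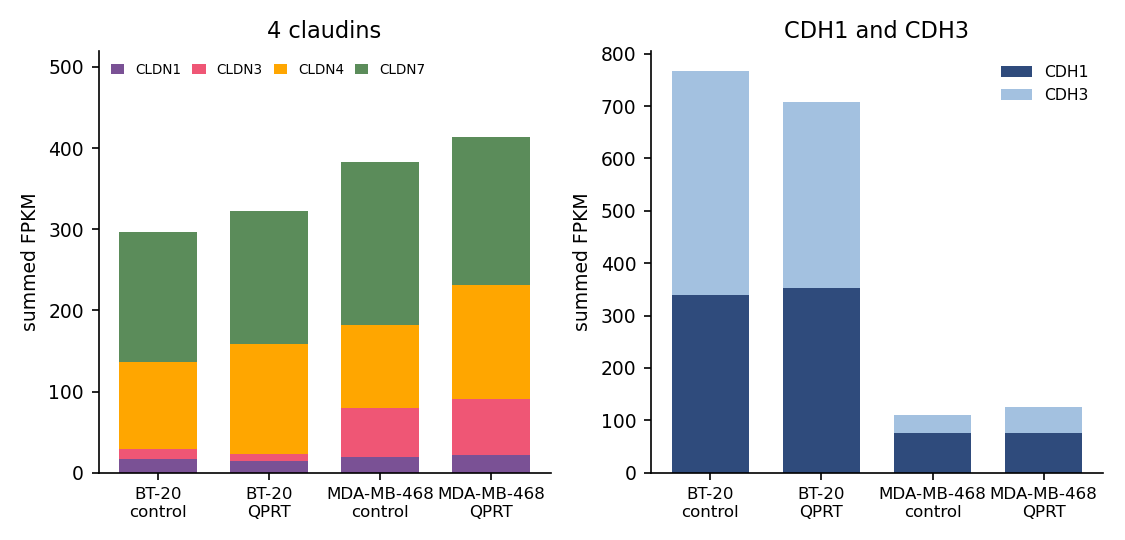
Summed FPKM of CLDN1, CLDN3, CLDN4 and CLDN7 (left) and of CDH1 and CDH3 (right) in the 4 libraries, with each bar divided by gene. The claudin sums run from 297 to 414 FPKM, while the cadherin sums are 767 and 709 in BT-20 against 110 and 125 in MDA-MB-468.

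The lines were then compared across all genes. Of the table, 14321 genes had a mean of at least 1 FPKM over the 4 libraries and were tested, including 9 of the 10 genes (CDH2 did not enter). The test was limma on log2(FPKM + 1) with the shRNA as a block and Benjamini-Hochberg adjustment over all tested genes, and a gene was called at an adjusted p under 0.05 and a difference of at least 2-fold. The fit has 1 residual degree of freedom per gene, which is the difference in shRNA response between the lines. The p-values and SE therefore rest on a spread pooled over genes and not on replicates of a gene. The 2 libraries of a line are cultures of the same line and differ in their shRNA. An exact two-sided permutation test of 2 libraries against 2 cannot go below 0.333.

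CLDN3 and EPCAM were called higher in MDA-MB-468, 2 of 9 genes tested where 16.9% of all tested genes were, and CDH1 and CDH3 were called higher in BT-20, 2 of 9 where 13.2% of all were. CLDN3 was 5.10-fold higher in MDA-MB-468 with control shRNA and 7.63-fold with QPRT shRNA in FPKM, with a limma difference in log2(FPKM + 1) of 2.53 (SE 0.225, limma adjusted p = 9.37e-28). EPCAM was 2.43-fold and 1.89-fold higher, with a difference of 1.096 (SE 0.191, limma adjusted p = 5.63e-08). The call of EPCAM lies close to the 2-fold line, and it was lost when the library of BT-20 with control shRNA was left out and when the dependence on GC content and length was taken out, where the difference was 0.93. CDH1 was 4.45-fold and 4.64-fold higher in BT-20, a difference of -2.17 (SE 0.194, limma adjusted p = 2.12e-27). CDH3 was 12.8-fold and 7.23-fold higher in BT-20, a difference of -3.23 (SE 0.197, limma adjusted p = 3.75e-58). With no filter on low values the limma adjusted p was 0.00691 for CLDN3, 0.0208 for EPCAM, 0.00512 for CDH1 and 0.00591 for CDH3. The differences were unchanged there, so the size of these p-values depends on the genes over which the spread is pooled. The 2 neighbouring cadherin genes thus shared their direction, while of the neighbouring claudins CLDN3 was called and CLDN4 was not.

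Taken pair by pair without a test, CLDN3 was past 2-fold higher in MDA-MB-468 under both shRNAs (1 of 9, against 13.3% of all tested genes), and CDH1 and CDH3 were past 2-fold higher in BT-20 under both (2 of 9, against 9.99%). By the adjusted p alone, with no threshold of fold, 6 of 9 genes passed, as did 55.1% of all tested genes. The additional ones were OCLN, higher in MDA-MB-468 by 0.60 (SE 0.244, limma adjusted p = 0.0272), and TJP1, lower by a difference of -0.53 (SE 0.225, limma adjusted p = 0.0345). OCLN no longer passed once trends on GC content and length were taken out (limma adjusted p = 0.0981), and with no filter on low values neither OCLN nor TJP1 did (limma adjusted p = 0.120 and 0.131). CLDN1 (difference 0.37, SE 0.234, limma adjusted p = 0.168), CLDN7 (0.23, SE 0.194, limma adjusted p = 0.308) and CLDN4 (0.0047, SE 0.197, limma adjusted p = 0.986) did not pass. The median limma difference of the 9 genes was 0.23 and that of all tested genes was 0.099.

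**Figure D3:**
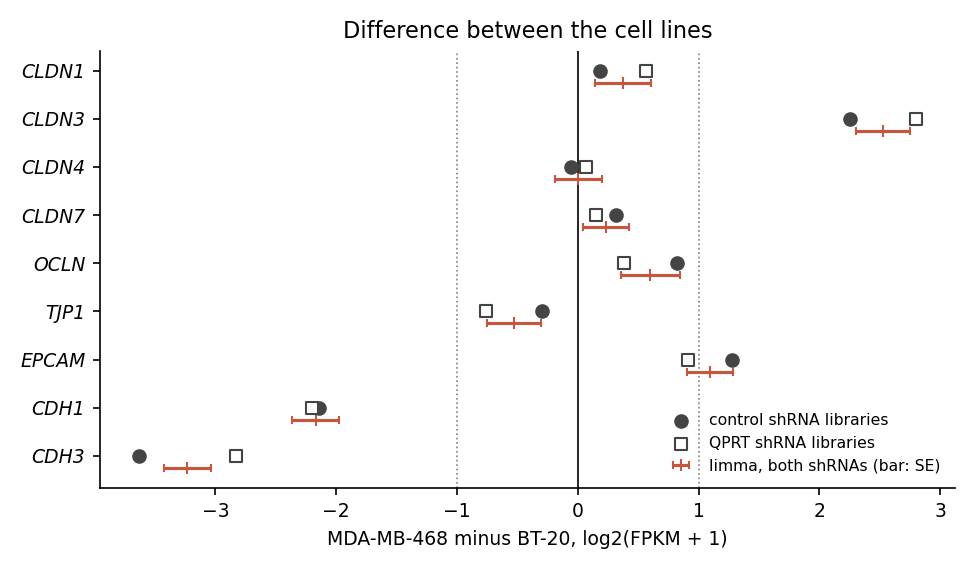
Difference in log2(FPKM + 1), MDA-MB-468 minus BT-20, for the 9 tested genes in the control shRNA libraries (filled circles), the QPRT shRNA libraries (open squares) and the limma fit over both (bar: SE); dotted lines mark 2-fold. CLDN3 lies past 2-fold on the right, CDH1 and CDH3 past it on the left, and EPCAM on either side of the line.

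RefSeq promoter windows, the 250 bases before a transcription start in GRCh38.p14, were available for 7 of the 10 genes in 13 windows. Those of CDH1, CDH3 and EPCAM were not used here. The windows were searched on both strands for the letters GGGCGG, a GC box, and for the letters CACCTG, the E-box that repressors of the Snail family are known to bind. The motifs do not overlap in the windows shown. A GC box was present in 9 of the 13 windows and in 42.6% of 35116 windows of all genes, and the E-box in 4 of the 13 and in 17.5%. The median GC content of all windows was 58%. Several of the 13 windows come from the same gene, and these counts were not matched for base composition. The window of CLDN3, the claudin called between the lines, at chr7:73770271-73770520 on the minus strand, is 71.6% GC and holds 4 GC boxes and no E-box. TJP1 differed in the other direction by less than 2-fold and was not called. Its most upstream window, at chr15:29969050-29969299 on the minus strand, is 66.8% GC and holds 2 GC boxes. It also holds 1 E-box that starts 88 bases before the transcription start, and the other windows of TJP1 hold no E-box. The window of CLDN3 and this window of TJP1 are shown 5′ to 3′ with the GC boxes of either strand in capitals.
CLDN3: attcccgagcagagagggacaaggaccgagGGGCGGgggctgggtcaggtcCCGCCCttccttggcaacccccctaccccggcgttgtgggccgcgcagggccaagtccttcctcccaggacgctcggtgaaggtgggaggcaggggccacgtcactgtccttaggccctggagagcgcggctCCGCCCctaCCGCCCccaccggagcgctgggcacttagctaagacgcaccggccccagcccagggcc
TJP1: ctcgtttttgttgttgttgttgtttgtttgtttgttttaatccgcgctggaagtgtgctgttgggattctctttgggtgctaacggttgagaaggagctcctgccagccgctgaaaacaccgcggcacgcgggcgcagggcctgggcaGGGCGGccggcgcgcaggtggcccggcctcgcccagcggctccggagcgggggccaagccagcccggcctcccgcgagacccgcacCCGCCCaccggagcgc
A match is only a match of letters, and binding was not measured.

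The question of the knockdown was whether these junction genes differed between QPRT shRNA and control shRNA. Within a line there is 1 library per shRNA and no test, so the differences were set beside 95% intervals (exact, Clopper-Pearson) for the ratio of recovered fragments, which cover counting error only. None of the 9 genes reached 2-fold in BT-20, where 1.7% of all tested genes did, and none reached it in MDA-MB-468, where 1.89% did. Over both lines, limma called 0 of the 9 genes with QPRT shRNA at an adjusted p under 0.05, where 0.628% of all tested genes (90 genes) were called. At an unadjusted p under 0.05 there was 1 of the 9, CLDN4, and limma-voom on the recovered fragments also called 0 of them, with 1 at an unadjusted p under 0.05. The median difference of the 9 genes was 0.055 in BT-20 and -0.0042 in the other line, beside medians of 0.048 and 0.011 over all tested genes.

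CLDN4 had higher counts with QPRT shRNA in both lines, the only one of the 9 genes for which both counting intervals lay above no change, as they did for 4.94% of all tested genes. Its fragments numbered 2559 in the control and 3320 in the QPRT shRNA library of BT-20 and 2534 and 3290 in those of MDA-MB-468. The FPKM was 1.26-fold and 1.38-fold higher, differences of 0.33 and 0.46 in log2(FPKM + 1), with intervals of the log2 ratio from 0.26 to 0.41 and from 0.39 to 0.54. The mean over the lines was 0.40 (SE 0.197), with a limma p of 0.0449 and an adjusted p of 0.994. The genes were chosen with results of these libraries known, so the direction of CLDN4 is not independent evidence.

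Opposite directions in the 2 lines, with both counting intervals away from no change, were found for 4 of the 9 genes, CLDN3, TJP1, CDH3 and EPCAM, and for 14.4% of all tested genes. The intervals are narrow for genes with many fragments, and these genes had from 124 to 6938 fragments in a library. CDH3 had 6938 fragments in the control and 5931 in the QPRT shRNA library of BT-20, compared with 560 and 776 in those of MDA-MB-468. Its FPKM was 0.832-fold and 1.47-fold that of the control, differences in log2(FPKM + 1) of -0.26 and 0.54, with intervals of the log2 ratio from -0.32 to -0.21 and from 0.40 to 0.71. EPCAM, with 1786 and 2246 fragments in BT-20 against 4476 and 4021 in MDA-MB-468, differed by 0.29 (interval 0.20 to 0.38) and by -0.07 (interval -0.13 to -0.01). In absolute terms CDH3 had the greatest gap between the lines in its response and EPCAM the smallest of the 4.

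CLDN3, with 159 and 124 fragments in BT-20 against 836 and 895 in MDA-MB-468, differed by -0.36 (interval -0.75 to -0.05) and 0.18 (interval 0.05 to 0.32). TJP1, with 1071 and 1249 fragments in BT-20 against 890 and 682 in MDA-MB-468, differed by 0.18 (interval 0.06 to 0.30) and -0.29 (interval -0.45 to -0.15). Once trends on GC content and length were taken out, the difference of CLDN3 in MDA-MB-468 was -0.024 and that of TJP1 in BT-20 was -0.036, so that neither had opposite directions any longer, while CDH3 (-0.26 and 0.48) and EPCAM (0.25 and -0.064) did.

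The other genes moved little or in 1 line. CLDN1, with 363 and 316 fragments in BT-20 against 428 and 451 in MDA-MB-468, differed by -0.22 (interval -0.46 to -0.02) and 0.15 (interval -0.03 to 0.35). CLDN7, with 1738 and 1819 fragments and 2232 and 1912, differed by 0.03 (interval -0.07 to 0.12) and -0.14 (interval -0.23 to -0.05). OCLN, with 333 and 368 fragments and 631 and 463, differed by 0.10 (interval -0.11 to 0.32) and -0.34 (interval -0.54 to -0.19), and its BT-20 value was -0.18 with the trends taken out. Over the 2 lines together CDH1 was the closest to no difference, with 8023 and 8560 fragments in BT-20 against 1857 and 1746 in MDA-MB-468. Its FPKM was 1.04-fold and 0.997-fold that of the control (interval of the log2 ratio 0.01 to 0.10 in BT-20 and -0.10 to 0.09 in MDA-MB-468).

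**Figure D4:**
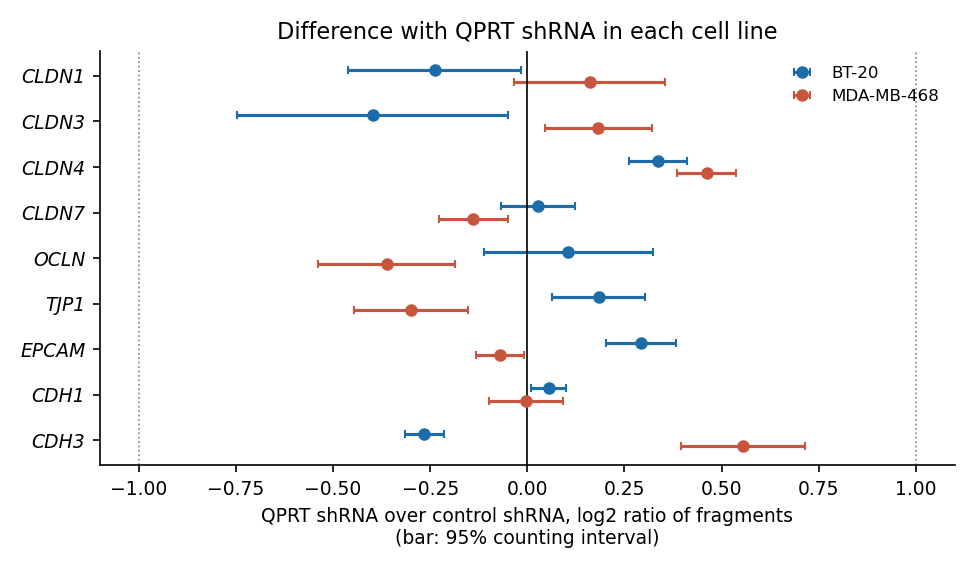
Log2 ratio of fragments, QPRT shRNA over control shRNA, for the 9 genes in BT-20 and MDA-MB-468 (1 library per line and shRNA; bars are 95% counting intervals; dotted lines mark 2-fold). Both intervals lie right of 0 for CLDN4, they lie on opposite sides of 0 for CLDN3, TJP1, CDH3 and EPCAM, and no gene reaches 2-fold.

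GC content moved with these differences. All tested genes were ordered by the GC content of their transcripts and divided into 5 equal groups. The median difference with QPRT shRNA in BT-20 was 0.186 in the group of lowest GC content and -0.0677 in that of highest, while the medians in MDA-MB-468 were -0.114 and 0.1404. The Spearman rho across 14232 genes was -0.283 (BT-20) and 0.288 (MDA-MB-468), and across the 9 genes it was -0.317 and 0.533. Genes of 1 library are not independent of each other, so these correlations are descriptions. With 1 library per line and shRNA, a base composition bias of a library and a difference of the cells cannot be told apart. The GC content was 40.0% for OCLN, 41.8% for CLDN1, 44.0% for TJP1, 46.4% for EPCAM, 50.02% for CDH1, 55.6% for CDH3, 57.4% for CLDN4, 58.8% for CLDN7 and 69.2% for CLDN3. Higher in BT-20 and lower in MDA-MB-468 were 5 of the 9 genes and 29.8% of all tested genes, the converse held for 3 and 24.8%, and 1 and 26.2% were higher in both. The part of GC content in the differences of single genes was not tested beyond its removal.

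**Figure D5:**
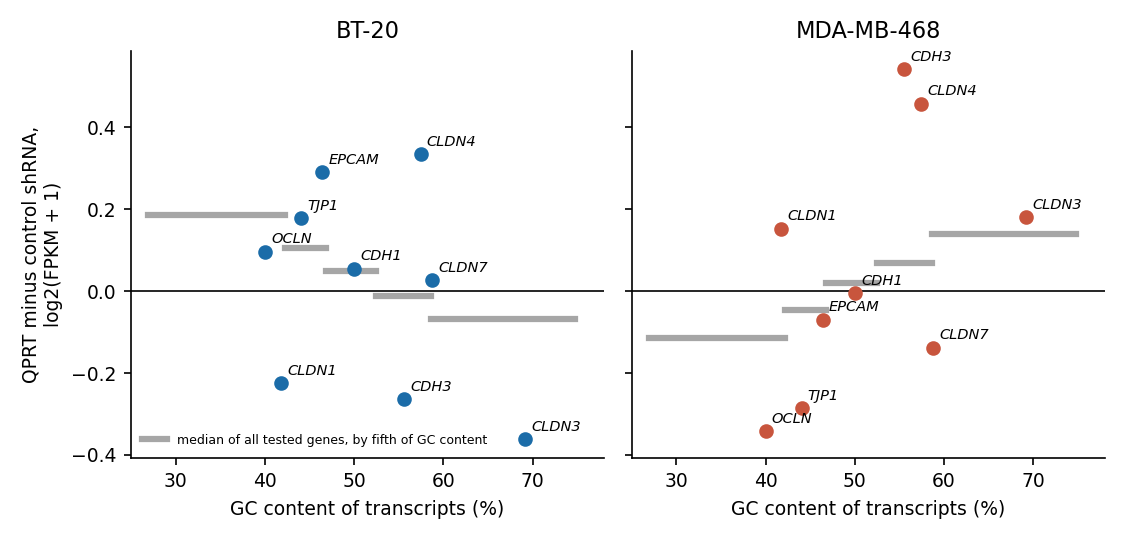
Difference in log2(FPKM + 1) with QPRT shRNA against the GC content of a gene's transcripts (percent) for the 9 genes (points, 1 library per line and shRNA), with the median of all tested genes in each of 5 equal groups by GC content (grey bars). The bars descend from 0.186 to -0.0677 for BT-20 and ascend from -0.114 to 0.1404 for MDA-MB-468, and CLDN4 lies above them in both lines.

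The genes were then set beside the rest of their pathways. The counts of these lists are to be read against all tested genes, of which 16.9% were called higher in MDA-MB-468 and 13.2% in BT-20, and 1.7% (BT-20) and 1.89% (MDA-MB-468) were past 2-fold with QPRT shRNA. Of 38 further tight junction genes, 26 were tested, 5 were called higher in MDA-MB-468 and 6 in BT-20, and none was past 2-fold with QPRT shRNA in either line. CLDN10, a claudin of ion-permeable epithelia, was at 0.0656 and 0.383 FPKM in BT-20 against 38.33 and 38.01 in MDA-MB-468, a limma difference of 5.01. CLDN23 (3.41) and CXADR, the virus receptor of the junction (3.17), were also called higher in MDA-MB-468. CLDN3 thus shared its direction with CLDN10 and CLDN23. Among 15 further adherens junction genes, 12 were tested and 3 were called in each direction, led by CTNNAL1, an alpha-catenin relative, higher in BT-20 (38.6 and 32.6 FPKM against 3.04 and 3.09), and NECTIN4, an immunoglobulin-like adhesion molecule, higher in MDA-MB-468 (10.1 and 11.1 against 68.9 and 67.3). CTNNA1, which links the cadherin complex to actin, was at 527 and 456 FPKM in BT-20 against 174 and 145 in MDA-MB-468, the direction of CDH1 and CDH3. Other catenins did not share it. CTNNB1 was at 123 and 149 FPKM in BT-20 against 201 and 208 in MDA-MB-468 (limma difference 0.59, under 2-fold and not called). The limma differences of CTNND1 (0.30) and JUP (0.09) were also positive and not called.

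Of 14 desmosome genes, 9 were tested, 3 were called higher in MDA-MB-468 and 2 in BT-20. DSP, the plaque protein desmoplakin, was at 14.2 and 22.7 FPKM in BT-20 against 104 and 92.6 in MDA-MB-468, and PPL, periplakin, was at 65.9 and 63.2 against 0.0618 and 0.0655. The desmosomal cadherin DSC3 was listed at 0 and 0.0186 FPKM in BT-20, 0 and 1 fragments, and at 3.99 and 7.78 in MDA-MB-468. Lower CDH1 and CDH3 in MDA-MB-468 therefore stood beside desmosome genes of both directions. Of 7 partners and relatives of EPCAM, all tested, 2 were called higher in MDA-MB-468 and none in BT-20.

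Of 10 regulators of epithelial genes, all tested, 1 was called in each direction. The transcription factor GRHL3 was at 0.252 and 0.123 FPKM in BT-20 against 11.3 and 17.9 in MDA-MB-468, and ESRP2, an epithelial splicing regulator, was at 142 and 143 against 32.9 and 31.4. Of 9 regulators of epithelial to mesenchymal transition, 5 were tested, and SNAI2 and SNAI1, repressors of CDH1, were called higher in BT-20, the line with more CDH1. SNAI2 was at 4.90 and 5.37 FPKM in BT-20 and listed at 0 in both MDA-MB-468 libraries, and SNAI1 was at 4.13 and 4.46 against 0.704 and 1.15. Of 8 mesenchymal genes, 6 were tested, 2 were called higher in MDA-MB-468 and 1 in BT-20. COL5A1, a fibrillar collagen chain, had the greatest difference of this list and was at 44.7 and 40.1 FPKM in BT-20 against 0.431 and 0.0703 in MDA-MB-468, a limma difference of -5.13. In the other direction S100A4 had the greatest difference of the list and was called higher in MDA-MB-468. VIM, the mesenchymal filament gene, was also called, at 1.87 and 2.14 FPKM in BT-20 against 9.19 and 9.88 in MDA-MB-468, where CDH2 was listed at 0. Among these lists and the further cadherins, the genes that limma called with QPRT shRNA over both lines were TSPAN8 and CDH17, both lower, and S100A4, higher (limma adjusted p = 0.0495). CDH17 belongs to a list of gut epithelium and plasma cell genes. All 14 tested genes of that list were lower with QPRT shRNA in both lines, where 17.7% of all tested genes were. The list was chosen with its fall in these libraries already known, so its count is not independent evidence. The part of that list in the values of TSPAN8 and CDH17 was not tested. Over all genes, the 90 calls with QPRT shRNA came to 1 once trends on GC content and length were taken out and to 0 with no filter on low values.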

How the data were processed

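The deposited table holds FPKM, which the authors computed per gene from TruSeq libraries of Trizol-extracted total RNA sequenced on an Illumina NovaSeq. Per the submitters' processing notes, FastQC, MultiQC, CASAVA, TopHat2 2.0.12 and HTSeq 0.6.1 were used; the genome build and annotation are not given in the sources used here. Coordinates, transcript lengths and GC content are from GENCODE 29 (GRCh38). Of 50653 identifiers, 49839 had a length. The total of each library was inferred as the smallest that turned FPKM times the mean transcript length into whole fragments. Multiples of a total would fit as well. The totals were 10321996 to 10945948 fragments, and 87.3% to 87.6% of values above 0 were then whole within 0.02. All fragment counts, intervals and floors rest on these totals. Without molecular identifiers, copies of 1 molecule are counted apart, and intervals and floors cover counting error only.

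Differences were taken on log2(FPKM + 1), which understates those of low genes, and limma 3.58.1 (R 4.3.3; eBayes with a trend) was fitted to 14321 genes whose mean FPKM was 1 or more, with line and shRNA as terms and Benjamini-Hochberg adjustment. On simulated data, 100% of 200 genes altered 4-fold among 14321 were recovered in either comparison, with 6.10% false calls. The altered genes were drawn from those above a minimum level, with independent normal noise and no interaction of line and shRNA. The simulation therefore says nothing about the recovery of differences below 4-fold, such as those of the 10 genes with QPRT shRNA. Alternatives were a pseudocount of 0.1, upper quartile and TPM scaling, no filter, a mean FPKM of at least 5, removal of the lowess trend on GC content and length (fraction 0.3; 99.4% of genes had both), no eBayes trend, no block, other fold thresholds, leaving out each library, and limma-voom on recovered fragments. Lengths of the longest transcript were an addition after the data were seen. Named genes are the 10 genes, QPRT, and from each further list up to 3 with the greatest absolute limma difference between the lines and up to 2 with the greatest mean difference with QPRT shRNA; values of 1 such gene are not reported here. CTNNB1, CTNND1 and JUP were named in addition, beside CTNNA1. The 10 genes and all lists were chosen with earlier results of these data known. Python 3.11.15 with pandas 2.3.3, scipy 1.17.1 and statsmodels 0.14.6 was used.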

Additional observations from a re-analysis of the deposited data

Results flagged for a closer look

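In 4 of the genes the difference with QPRT shRNA had opposite signs in BT-20 and MDA-MB-468, with the counting intervals of both lines away from no change. The difference in MDA-MB-468 minus that in BT-20, in log2(FPKM + 1), was 0.81 for CDH3, 0.54 for CLDN3, -0.46 for TJP1 and -0.36 for EPCAM. With 1 library per line and shRNA this gap between the lines was not tested. Once trends on GC content and length were taken out, the signs no longer differed for CLDN3 (-0.024 in MDA-MB-468) and TJP1 (-0.036 in BT-20), and they did for CDH3 and EPCAM. Over all tested genes, 14.4% met the same rule.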

How the results depend on the processing

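With 1 library per line and shRNA, no difference with QPRT shRNA has a replicate check. The number of genes called between the lines was 4, with 3 once GC content and length trends were taken out or without the library of BT-20 with control shRNA (EPCAM lost), 6 with no fold threshold, and 4 in each other alternative. None was past 2-fold or called with QPRT shRNA under any alternative. Taking out the GC content and length trends turned the sign of 5 differences: QPRT shRNA in BT-20 for OCLN (-0.18), TJP1 (-0.036) and CDH1 (-0.056), QPRT shRNA in MDA-MB-468 for CLDN3 (-0.024), and the line difference of CLDN4 (-0.0026). The cause was not tested. Over all genes, those past 2-fold with QPRT shRNA numbered 244 (BT-20) and 271 (MDA-MB-468), 792 and 756 at a pseudocount of 0.1, 370 and 417 with no filter, 103 and 96 at a mean FPKM of at least 5, and 1286 and 1313 at 1.5-fold. limma called 90 genes with QPRT shRNA, 45 at a mean FPKM of at least 5, 1 after removal of the trend, and 0 with no filter or no line block. Between the lines, 4307 genes were called, 2798 at a mean FPKM of at least 5 and 7893 with no fold threshold, and 3332 were past 2-fold under both shRNAs, 2186 at a mean FPKM of at least 5 and 5844 at 1.5-fold. The line comparison was blocked by shRNA and the QPRT shRNA comparison by line; the labels carry no replicate numbers for any further pairing.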

Other observations

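Of 19 further cadherin genes, 4 were tested and 4 were listed at 0 in every library. CDH5, the VE-cadherin of endothelium, was at 96.5 and 134 FPKM in BT-20 and at 1.24 and 0.912 in MDA-MB-468 (limma difference -5.79, SE 0.24), a level close to that of CLDN4 in BT-20. The other endothelial markers were low in BT-20: PECAM1 at 2.78 and 3.27 FPKM, VWF at 1.93 and 1.94, and CLDN5 at 0.328 and 0.0912. In MDA-MB-468 PECAM1 was at 1.06 and 1.28 FPKM, VWF at 0.284 and 0.181, and CLDN5 at 0 and 0.193. VWF was thus also called higher in BT-20 (limma difference -1.25), on few fragments, and PECAM1 differed in that direction without a call (-0.89). The 15 markers of blood, endothelial, stromal and liver cells summed to 136 and 165 FPKM in BT-20, most of it CDH5, and to 39.0 and 45.1 in MDA-MB-468.

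CDH17, the liver-intestine cadherin, was at 1.60 and 0.613 FPKM in BT-20 and at 3.24 and 0.448 in MDA-MB-468, and it was called lower with QPRT shRNA by limma over both lines. It belongs to a list of 20 gut epithelium and plasma cell genes, chosen with their fall in these libraries already known. Of these, 19 had fewer fragments with QPRT shRNA in both lines, and 17.7% of all tested genes were lower in both. Of the 14 tested, 12 were called, beside 0.628% of all tested genes. Over all genes, the 90 calls came to 1 once trends on GC content and length were taken out and to 0 with no filter on low values. The list summed to 97.9 and 37.7 FPKM in BT-20 and to 224 and 41.0 in MDA-MB-468. TSPAN8, a tetraspanin that binds EPCAM, fell beside them, from 3.55 to 0.972 FPKM and from 12.1 to 2.17. EPCAM, CLDN3, CLDN4 and CLDN7, which gut epithelium also expresses, did not pass the test. Their values do not show a source of RNA, so this says nothing about that list. The part of that list in the values of CDH17, TSPAN8 and the junction genes was not tested.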
